A study of Homo sapiens with 12 samples.

Results

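Interferon-stimulated genes are the genes that a cell switches on after interferon binds its receptors, and they hold most of the known antiviral effectors together with the factors that drive the response. A fixed list of 43 of them was read out in the gene expression table of 4 pancreatic cancer cell lines, where all 43 symbols were found once among 58302 genes. The members were taken by name, without a threshold on any measured value, but the list was chosen with earlier results of these data known. Parental BxPC-3 and CFPAC-1 are human pancreatic adenocarcinoma lines labelled as sensitive to gemcitabine (GEM), a nucleoside analog. The lines labelled as resistant are BxPC-3-GR, made from BxPC-3, and its CFPAC-1 counterpart CFPAC-1-GR, both obtained by exposure to rising GEM concentrations. Total RNA was sequenced from 3 replicates of each line, 12 libraries in all, and none of the labels names an interferon or virus treatment. Each resistant line was derived once, so replicates describe that derived line and not GEM resistance in general. The labels give one culture medium for all lines, whereas the study's methods name another one for CFPAC-1 than for BxPC-3, so a part of the medium in differences between the lines cannot be told apart from the line. The labels call the morphology of BxPC-3-GR mesenchymal and that of the other lines epithelial. No source used here says that replicates were separate cultures, so p-values measure the spread between these libraries, which may be technical.

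Type I interferons bind IFNAR1 and IFNAR2, the kinases JAK1 and TYK2 become active, and STAT2 and IRF9 enter a complex that binds the interferon-stimulated response element (ISRE) in promoters. Interferon gamma acts on a second element, the gamma-activated site (GAS). In epithelial tumor cells a part of these genes can be expressed at a standing level without added interferon.

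Levels are given in FPKM, a fragment count scaled for library depth and gene length, so levels of different genes can be set beside each other. Differences are given as log2FC, the difference of mean log2(FPKM + 1), which understates the fold change of genes near or below 1 FPKM. A gene was tested where its mean over the libraries compared was at least 1 FPKM, and it was called higher or lower where limma's Benjamini-Hochberg adjusted p was below 0.05 and the absolute log2FC above 1. Depth implied by the steps between low FPKM values was 12700000 to 25200000 fragments per library, and Spearman correlations between replicates over all genes were 0.959 to 0.971. Of 6 epithelial marker genes, all had a mean of at least 1 FPKM in BxPC-3, BxPC-3-GR and CFPAC-1 and 5 did in CFPAC-1-GR. CLDN4, one of them, varied widely between replicates. It was at 8.41, 8.78 and 0.0415 FPKM in BxPC-3, 1.42, 23.4 and 1.52 in BxPC-3-GR and 0.498, 4.87 and 0.194 in CFPAC-1. PTPRC, the pan-leukocyte marker, was listed at 0 in every library. Of the 3 other leukocyte markers, CD3E stayed at or below 0.0968 FPKM. CD14 was at 0.349 to 0.595 FPKM in the BxPC-3 pair but 2.67 to 4.58 in the CFPAC-1 pair, and CD68, a lysosomal protein, was at 0.909 to 3.94 FPKM in the BxPC-3 pair but 29.3 to 36.9 in CFPAC-1 and at least 9.83 in CFPAC-1-GR. VIM, a mesenchymal intermediate filament, lay between 0.686 and 0.891 FPKM in the BxPC-3-GR libraries, below the 5.51 to 7.25 FPKM of BxPC-3, while the CFPAC-1 libraries held 106 to 141 and those of CFPAC-1-GR 51.2 to 68.7. Of the 4 other mesenchymal or fibroblast markers, COL1A1 was higher in both resistant lines, at 0.983 to 1.23 FPKM against 0.664 to 0.772 and at 2.68 to 3.32 against 1.26 to 1.65, and ZEB1, COL1A2 and DCN stayed at or below 0.197 FPKM. The part of these markers in the results was not tested.

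The promoters of the members with the largest changes are shown because the ISRE is the DNA element by which most of these genes are known to be controlled. Sequences are from RefSeq on GRCh38.p14 and run from 250 bases before to 50 bases after the listed start of the gene, on the strand of the gene and from 5′ to 3′. Capitals mark matches to the ISRE-like letters GAAANNGAAA or, for the other strand, TTTCNNTTTC. SAMD9, PARP14, IFIT5 and IFIT3 had the largest increases in CFPAC-1-GR, IFI6 had the largest decrease in BxPC-3-GR, and IFITM1 and ISG15 had the largest decreases in CFPAC-1-GR.
SAMD9 (chr7:93117930-93118229, minus strand): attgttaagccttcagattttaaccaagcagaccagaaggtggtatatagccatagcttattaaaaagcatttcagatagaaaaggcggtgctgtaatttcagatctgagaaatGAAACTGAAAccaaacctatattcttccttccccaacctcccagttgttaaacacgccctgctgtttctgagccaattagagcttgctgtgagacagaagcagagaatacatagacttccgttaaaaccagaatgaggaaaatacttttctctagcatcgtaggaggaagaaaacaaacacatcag
PARP14 (chr3:122680589-122680888, plus strand): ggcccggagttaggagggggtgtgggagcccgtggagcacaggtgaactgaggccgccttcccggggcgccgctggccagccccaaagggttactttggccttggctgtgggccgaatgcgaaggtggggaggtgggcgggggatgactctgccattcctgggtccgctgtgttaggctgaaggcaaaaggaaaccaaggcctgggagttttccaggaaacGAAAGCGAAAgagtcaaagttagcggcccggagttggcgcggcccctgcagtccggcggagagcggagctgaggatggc
IFIT5 (chr10:89414318-89414617, plus strand): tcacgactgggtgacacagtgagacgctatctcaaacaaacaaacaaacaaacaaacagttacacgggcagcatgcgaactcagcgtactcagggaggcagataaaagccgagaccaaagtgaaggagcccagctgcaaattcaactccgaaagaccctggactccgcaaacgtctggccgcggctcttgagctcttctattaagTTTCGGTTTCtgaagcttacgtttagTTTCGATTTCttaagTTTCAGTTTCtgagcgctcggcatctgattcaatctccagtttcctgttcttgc
IFIT3 (chr10:89327747-89328046, plus strand): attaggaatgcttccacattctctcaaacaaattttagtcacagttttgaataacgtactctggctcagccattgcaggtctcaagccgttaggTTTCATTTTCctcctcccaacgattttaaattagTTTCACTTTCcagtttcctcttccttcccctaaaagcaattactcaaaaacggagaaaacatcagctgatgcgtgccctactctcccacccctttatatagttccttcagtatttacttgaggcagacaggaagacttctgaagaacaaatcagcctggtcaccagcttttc
IFI6 (chr1:27672143-27672442, minus strand): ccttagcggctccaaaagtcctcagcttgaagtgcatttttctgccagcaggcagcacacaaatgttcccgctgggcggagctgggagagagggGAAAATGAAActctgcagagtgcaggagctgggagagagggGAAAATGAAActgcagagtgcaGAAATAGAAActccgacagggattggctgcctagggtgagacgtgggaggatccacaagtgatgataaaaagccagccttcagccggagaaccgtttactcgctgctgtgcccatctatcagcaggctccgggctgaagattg
IFITM1 (chr11:313790-314089, plus strand): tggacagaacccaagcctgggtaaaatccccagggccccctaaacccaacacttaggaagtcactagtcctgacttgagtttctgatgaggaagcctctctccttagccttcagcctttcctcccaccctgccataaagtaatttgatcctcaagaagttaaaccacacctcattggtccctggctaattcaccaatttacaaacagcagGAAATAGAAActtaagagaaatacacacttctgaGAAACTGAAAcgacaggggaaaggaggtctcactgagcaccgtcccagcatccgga
ISG15 (chr1:1013247-1013546, plus strand): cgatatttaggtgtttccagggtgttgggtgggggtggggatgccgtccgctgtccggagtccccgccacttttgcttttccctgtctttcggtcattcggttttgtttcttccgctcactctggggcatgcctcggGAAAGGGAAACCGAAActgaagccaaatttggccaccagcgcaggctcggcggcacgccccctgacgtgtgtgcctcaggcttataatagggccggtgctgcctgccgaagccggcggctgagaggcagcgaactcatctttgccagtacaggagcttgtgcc
Where RefSeq lists several starts, the first was used. SAMD9 held 1 match, whose first base lay 136 bases before the start, and PARP14 held 1 match at 29 bases. IFIT5 held 3 matches that began 45, 19 and 4 bases before the start, and IFIT3 held matches at 156 and 122 bases. In ISG15 the matches at 113 and 107 bases overlapped each other. Among all 27305 promoters of this length in the table, 996 (3.65%) held the ISRE-like letters on either strand. For the members, 35 of 43 had an entry, with DDX58 found under its newer symbol RIGI, and 23 of the 35 (65.7%) held the letters. The GAS-like letters TTCNNNGAA, which read the same on both strands, were in 2152 of 27305 promoters (7.88%) and in 10 of 35 members (28.6%). In 4 members an ISRE-like and a GAS-like match overlapped. The ISRE-like letters were present in 11 of 13 members with an entry that were called higher in CFPAC-1-GR, in 3 of 3 called lower there and in 4 of 5 called lower in BxPC-3-GR. A match says only that the letters are present in this window.

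At the level of the whole group, the 43 members summed to 432 to 451 FPKM in the BxPC-3 libraries, 389.8 to 415 in BxPC-3-GR, 798 to 856 in CFPAC-1, with 610.2 to 667 in CFPAC-1-GR. These sums rest on a few abundant members, chiefly IFITM3, BST2, ISG15 and LGALS3BP. The median member was lower like the sum in the BxPC-3 pair, from 5.55 FPKM to 3.61, and went against it in the CFPAC-1 pair, from 2.61 FPKM up to 6.57. Neither measure is corrected for the trend with GC content in the CFPAC-1 pair that is given below. The abundant members named above have 56.9 to 63.4% GC. A mean of 10 FPKM or more was reached by 13 members in BxPC-3, 8 in BxPC-3-GR, 12 in CFPAC-1 and 14 in CFPAC-1-GR. Below 1 FPKM were 8, 12, 13 and 7 members, respectively.

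**Figure D1:**
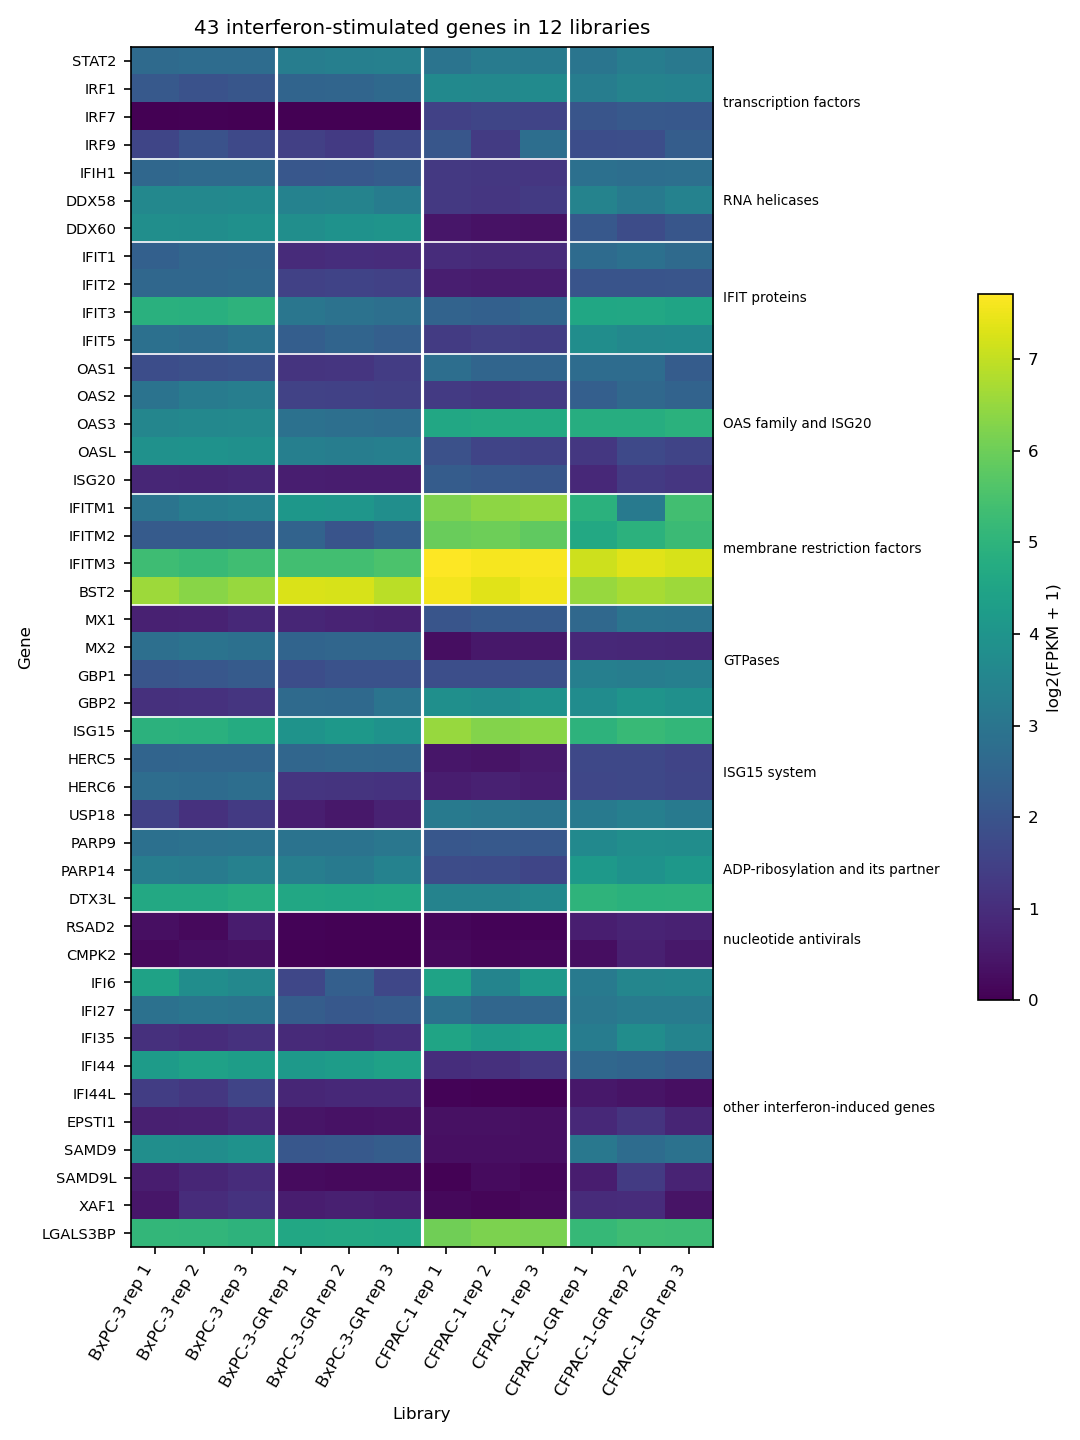
Color gives log2(FPKM + 1) of the 43 members (rows, ordered by role) in each of the 12 libraries (columns, white lines between the lines). BST2, IFITM3, ISG15 and LGALS3BP were bright in all libraries, the IFIT genes were brighter in BxPC-3 and CFPAC-1-GR than in the other lines, and IRF7 was near 0 in all 6 BxPC-3 and BxPC-3-GR libraries.

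In BxPC-3-GR against BxPC-3, 34 members were tested. Lower were 7 members, namely IFI6, IFIT3, SAMD9, OAS2, HERC6, IFIT1 and IFIT2, where 3.62% of all 11710 genes tested were called lower. Higher was 1 member, GBP2, where 4.14% of all genes were called higher. By adjusted p alone, 20 members were lower and 5 higher, while 31.5% of all genes were lower and 26.2% higher by that rule. The median log2FC of the members was -0.39, and that of all genes tested was -0.05. In bulk RNA, a lower level per cell and fewer expressing cells cannot be told apart.

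In CFPAC-1-GR against CFPAC-1, 36 members were tested and the main direction was the opposite one. Called higher were 15 members, led by SAMD9, PARP14, IFIT5, IFIT3 and DDX58, where 20.5% of all 12051 genes tested were called higher. IFITM1, ISG15 and ISG20 were called lower, where 11.7% of all genes were. By adjusted p alone, 20 members were higher and 9 lower, with 44.6% of all genes higher and 34.9% lower by that rule. The median log2FC was 0.52 over the members and 0.13 over all genes tested. A gene could reach the minimum mean through 1 line alone, and IFIT1, IFIT2, DDX60, HERC5, HERC6 and SAMD9 were below 1 FPKM in all 3 CFPAC-1 libraries.

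A property of the genes moved with this second comparison. Over all genes tested, log2FC in CFPAC-1-GR against CFPAC-1 fell as the GC content of the transcript rose (Spearman's rho = -0.777 across genes, which are not independent replicates), and over the members it fell likewise (rho = -0.857). Of genes with at most 40% GC, 66.1% were called higher, and all 4 members in that range were. Between 40 and 45% GC, 40.2% of all genes and 10 of 11 members were called higher. Above 55% GC, 31.9% of all genes and 1 of 9 members were called lower. No such trend was present in BxPC-3-GR against BxPC-3 (rho = 0.039) or between the resistant lines (rho = 0.019), whereas it was present between the parental lines (rho = -0.628), so it accompanied the CFPAC-1 libraries. After the trend with GC content and exon length over all genes was subtracted, 6 members were called higher in CFPAC-1-GR and none lower, by limma at the same thresholds. These were SAMD9, PARP14, IFIT5, IFIT3 and DDX58, which were also called without the correction, and IRF7. With the correction 4.69% of all genes were called higher and 3.97% lower, and in BxPC-3-GR the 7 lower members and GBP2 kept their calls. Whether the trend is technical was not tested, so corrected values are given beside the calls of CFPAC-1-GR below. The correction takes the same amount from all genes of like GC content and length. For genes below 1 FPKM in CFPAC-1, log2(FPKM + 1) already understates a rise. The correction may therefore take too much from IFIT1, IFIT2, DDX60, HERC5, HERC6 and SAMD9. A call lost by such a gene does not tell whether its rise follows the trend.

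**Figure D2:**
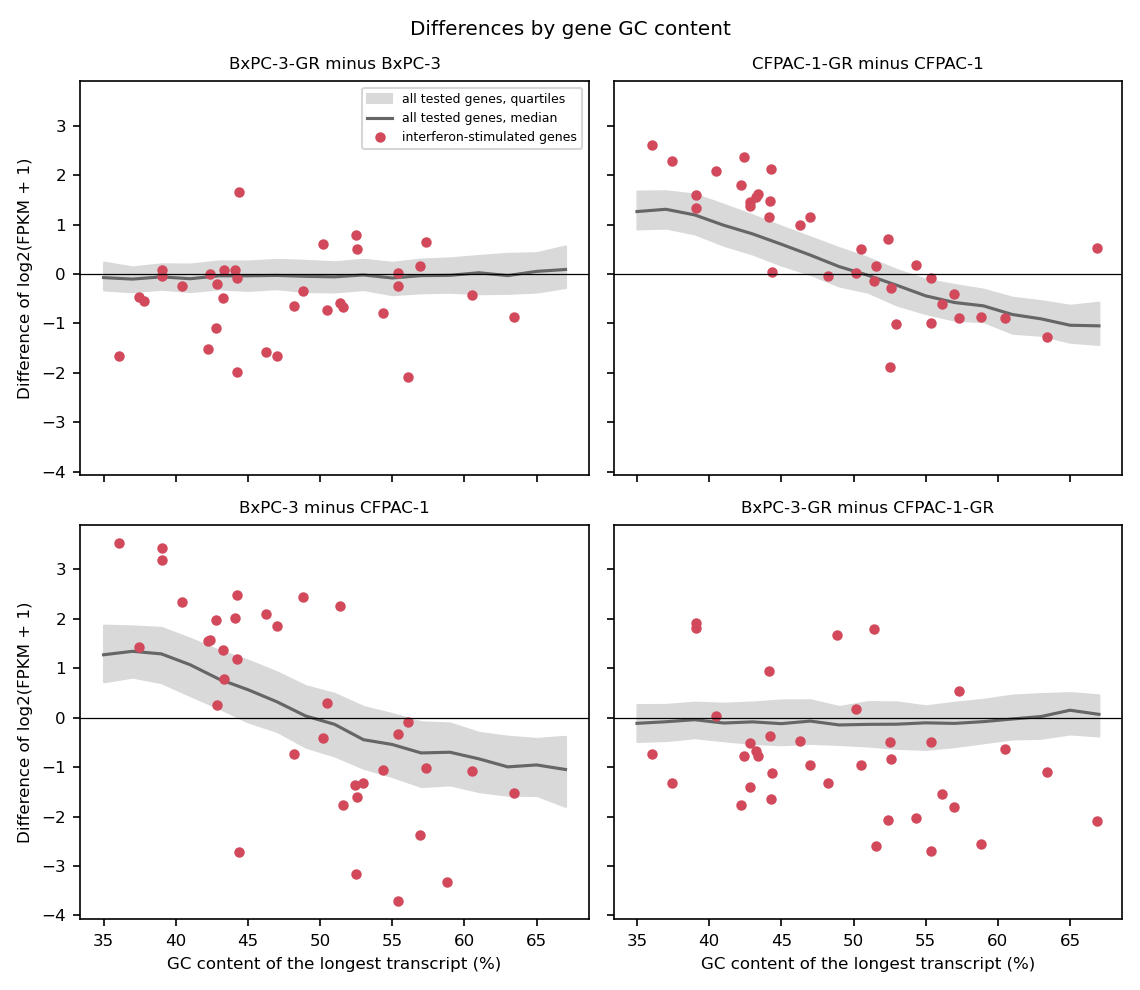
Difference of mean log2(FPKM + 1) against the GC content of each gene's longest transcript in the 4 comparisons, with the median (line) and quartiles (band) of all tested genes in bins of GC content and the members as points. The line falls from above 1 to about -1 in both comparisons that hold the CFPAC-1 libraries and is flat near 0 in the other 2.

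None of the 4 transcription factors of the response was called in either comparison with resistance before the correction. STAT2, a subunit of the ISRE-binding complex, had a log2FC of 0.61 ± 0.05 (SE, n = 3 against 3) in BxPC-3-GR, below the fold threshold, and of 0.02 ± 0.10 in CFPAC-1-GR (corrected -0.11). IRF1 stood at 3.41, 2.87 and 3.15 FPKM in BxPC-3, 4.57, 4.77 and 5.24 in BxPC-3-GR, 11.6, 11.1 and 12 in the CFPAC-1 libraries and 8.68, 9.94 and 9.59 in CFPAC-1-GR. IRF1, a direct activator of many antiviral genes, was thus higher in the CFPAC-1 libraries than in BxPC-3 without overlap (log2FC -1.60 ± 0.07 for BxPC-3 against CFPAC-1, limma's adjusted p = 1.38e-06). That value is not corrected for GC content. IRF1 has 52.6% GC, and genes of about 53% GC had a median log2FC of -0.44 in the same comparison. The change of IRF1 with resistance was 0.50 in BxPC-3-GR against -0.27 in CFPAC-1-GR (corrected -0.25). IRF7, which amplifies type I interferon production, was nearly absent from the BxPC-3 pair, at 0 to 0.0396 FPKM, and lay between 1.84 and 2.03 FPKM in CFPAC-1. In CFPAC-1-GR it lay between 3.08 and 3.44 FPKM. Its log2FC in CFPAC-1-GR was 0.53 ± 0.07 uncorrected and 1.55 after the GC and length correction, where it was called. IRF9, the DNA-binding partner in the same complex, overlapped between the groups in both comparisons with resistance. IRF9 shares 48.4% of its exon bases with another annotated gene on its own strand, so its FPKM is uncertain.

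IFIH1 and DDX58 encode MDA5 and RIG-I, cytoplasmic helicases that sense viral RNA, and DDX60 is a related helicase. DDX58 was at 11, 11.2 and 11.5 FPKM in BxPC-3, 9.8, 9.96 and 8.53 in BxPC-3-GR, 1.45, 1.32 and 1.46 in the CFPAC-1 libraries and 9.99, 8.09 and 9.73 in CFPAC-1-GR. The CFPAC-1 libraries were low and the 3 other lines stood close to each other. DDX58 rose in CFPAC-1-GR with a log2FC of 2.09 ± 0.09 (limma's adjusted p = 6.28e-06), or 1.06 after the correction, while its log2FC in BxPC-3-GR was -0.23 ± 0.07. DDX60 had values of 13.1, 12.8 and 13.7 FPKM in BxPC-3, 13, 14.3 and 15 in BxPC-3-GR, 0.379, 0.286 and 0.282 in the CFPAC-1 libraries and 3.4, 2.43 and 3.16 in CFPAC-1-GR. DDX60 rose in CFPAC-1-GR without reaching the levels of the BxPC-3 pair, with a log2FC of 1.60. It became 0.36 and lost its call after the correction, which may take too much from a gene this low in CFPAC-1. IFIH1 rose from 1.35 to 1.43 FPKM in CFPAC-1 to 5.84 to 6.17 in CFPAC-1-GR, a log2FC of 1.56 that was 0.75 and no longer called after the correction.

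The IFIT proteins bind viral RNA and restrain its translation, and their genes lie side by side on chromosome 10. All 4 were lower by adjusted p in BxPC-3-GR, 3 of them past the fold threshold, and all 4 were called higher in CFPAC-1-GR. IFIT3 lay at 28.9, 28.1 and 30.5 FPKM in BxPC-3, 7.15, 6.54 and 6.09 in BxPC-3-GR, 4.45, 4.14 and 4.7 in the CFPAC-1 libraries and 23.1, 23.6 and 21.6 in CFPAC-1-GR. In both pairs the groups were separate, with the high level in BxPC-3 and CFPAC-1-GR and the low level in BxPC-3-GR and CFPAC-1. IFIT3 had a log2FC of -1.99 ± 0.07 in BxPC-3-GR (limma's adjusted p = 7.48e-06), which is a mean FPKM 4.42-fold lower, and of 2.13 ± 0.07 in CFPAC-1-GR (adjusted p = 6.25e-06), a mean FPKM 5.14-fold higher. After the correction both kept their calls, at -1.93 and 1.60. IFIT5 was measured at 6.25, 5.71 and 6.59 FPKM in BxPC-3, 3.92, 4.54 and 4.07 in BxPC-3-GR, 1.53, 1.78 and 1.65 in the CFPAC-1 libraries and 12.7, 11.2 and 11.8 in CFPAC-1-GR. IFIT5 rose by 2.28 in CFPAC-1-GR (1.12 corrected), and its log2FC of -0.47 in BxPC-3-GR was below the fold threshold. IFIT1 had the same pattern at lower levels, with 4.17 to 4.91 FPKM in BxPC-3, 0.949 to 1.0 in BxPC-3-GR, 0.891 to 0.977 in CFPAC-1 but 5.37 to 6.25 in CFPAC-1-GR. Its log2FC was -1.51 ± 0.07 in BxPC-3-GR against 1.80 ± 0.07 in CFPAC-1-GR, the second reduced to 0.91 and not called after the correction. IFIT2 followed with -1.09 and 1.39, the second being 0.59 after the correction. IFIT2 shares 65 exon bases with LIPA on the opposite strand, and the strand setting of the counting is not given in the sources used here.

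**Figure D3:**
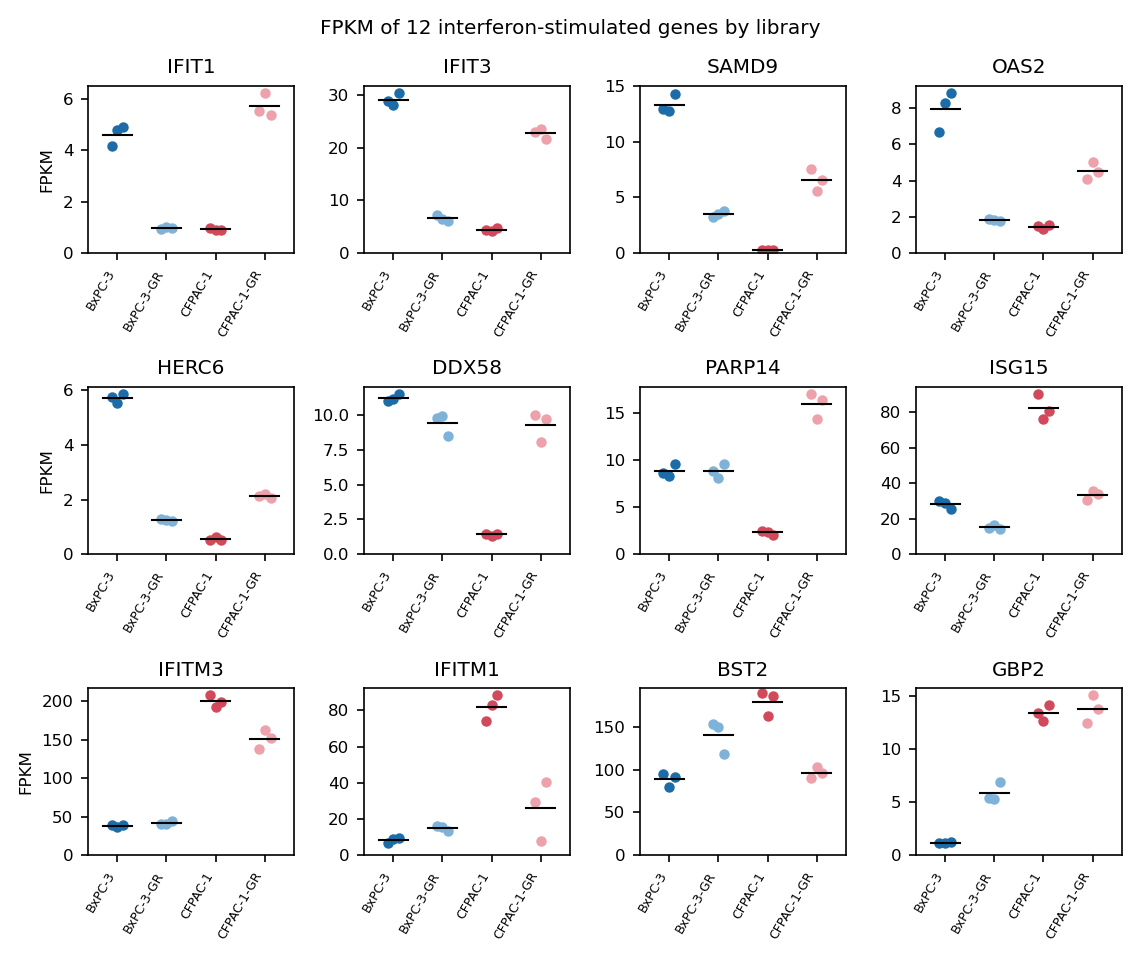
FPKM of 12 members by library, with a point for each library and a bar at the mean of each line (n = 3). IFIT1, IFIT3, SAMD9, OAS2 and HERC6 were high in BxPC-3, low in BxPC-3-GR and CFPAC-1 and intermediate or high in CFPAC-1-GR, while ISG15 and IFITM1 were highest in CFPAC-1 and IFITM1 varied between the CFPAC-1-GR libraries.

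The OAS enzymes make the second messenger that activates RNase L, OASL is a family member without that activity, and ISG20 is an RNA exonuclease. In BxPC-3-GR all 4 of the tested members were lower by adjusted p, and OAS2 was the only one of them past the fold threshold. OAS2 fell from 6.70 to 8.85 FPKM in BxPC-3 to 1.77 to 1.87 in BxPC-3-GR, with a log2FC of -1.66 ± 0.10 (limma's adjusted p = 4.75e-05). In CFPAC-1-GR OAS2 moved the other way, from 1.36 to 1.55 FPKM up to 4.09 to 5.03, with a log2FC of 1.16 that was 0.72 and not called after the correction. OAS3 stood at 10.7, 11.2 and 11.4 FPKM in BxPC-3, 6.36, 6.09 and 5.69 in BxPC-3-GR, 23.5, 24.5 and 24.7 in the CFPAC-1 libraries and 26.8, 27.2 and 29.5 in CFPAC-1-GR. OAS3, the most abundant of the family in the CFPAC-1 pair, had a log2FC of -0.78 in BxPC-3-GR against 0.19 in CFPAC-1-GR (corrected 0.34). OASL was at 14, 14.3 and 13.8 FPKM in BxPC-3, 9.04, 8.72 and 9.14 in BxPC-3-GR, 2.73, 2.01 and 1.79 in the CFPAC-1 libraries and 1.39, 2.27 and 1.98 in CFPAC-1-GR. OASL went against OAS3 between the lines, being high in the BxPC-3 pair and low in the CFPAC-1 pair. OAS1 had a log2FC of -0.64 in BxPC-3-GR against -0.05 in CFPAC-1-GR (corrected -0.30). ISG20 was called lower in CFPAC-1-GR at the edge of the threshold, at -1.01, and was -0.94 and not called after the correction. Without CFPAC-1 replicate 1 its log2FC was -0.96, and without CFPAC-1-GR replicate 1 it was -0.88.

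The membrane restriction factors include the members with the highest levels in each line, BST2 and IFITM3. IFITM1, IFITM2 and IFITM3 block fusion of viral and cellular membranes and lie within one cluster on the short arm of chromosome 11, and BST2 (tetherin) holds budding virus at the cell surface. IFITM3 had values of 38.6, 35.9 and 39.3 FPKM in BxPC-3, 41, 41 and 45 in BxPC-3-GR, 209, 193 and 199 in the CFPAC-1 libraries and 138, 163 and 152 in CFPAC-1-GR. The CFPAC-1 pair stood above the BxPC-3 pair in all libraries. IFITM3 had a log2FC with resistance of 0.15 ± 0.06 in BxPC-3-GR against -0.41 ± 0.08 in CFPAC-1-GR, the second becoming 0.34 after the correction. IFITM2 lay at 3.61, 3.62 and 3.79 FPKM in BxPC-3, 4.52, 3.0 and 3.91 in BxPC-3-GR, 61.3, 63.5 and 56.2 in the CFPAC-1 libraries and 23.9, 29.9 and 36.9 in CFPAC-1-GR. IFITM2 had a log2FC of 0.03 in BxPC-3-GR against -0.99 in CFPAC-1-GR, just short of the fold threshold, and the latter was -0.37 after the correction. IFITM1 was measured at 6.88, 8.69 and 9.31 FPKM in BxPC-3, 16, 15.7 and 13.1 in BxPC-3-GR, 73.9, 82.7 and 88.3 in the CFPAC-1 libraries and 29.1, 8.01 and 40.3 in CFPAC-1-GR. IFITM1 was called lower in CFPAC-1-GR, but its 3 libraries there lay far apart, which gave a log2FC of -1.88 ± 0.52 with a limma adjusted p of 0.0133. Without CFPAC-1-GR replicate 2, the lowest library, the log2FC was -1.23, and after the GC and length correction it was -1.48 with an adjusted p of 0.0578. IFITM1 and IFITM2 share 351 exon bases on one strand, 32.5% of the exon bases of IFITM1, so their FPKM cannot be fully separated. BST2 stood at 95.1, 79.9 and 91.3 FPKM in BxPC-3, 153, 150.4 and 119 in BxPC-3-GR, 190.0, 163 and 186 in the CFPAC-1 libraries and 90.6, 104 and 95.5 in CFPAC-1-GR. BST2 passed by adjusted p alone in both pairs, with a log2FC of 0.65 in BxPC-3-GR against -0.89 in CFPAC-1-GR, and the latter was -0.11 after the correction.

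Among the GTPases, GBP2 was the only member called higher in BxPC-3-GR, and IFITM1, BST2, STAT2 and IRF1 were higher there by adjusted p alone. Guanylate-binding proteins attack the vacuoles of intracellular pathogens and are known above all as interferon gamma targets. GBP2 was at 1.09, 1.15 and 1.26 FPKM in BxPC-3, 5.38, 5.28 and 6.88 in BxPC-3-GR, 13.3, 12.6 and 14.1 in the CFPAC-1 libraries and 12.4, 15 and 13.8 in CFPAC-1-GR. GBP2 rose 5.0-fold in mean FPKM in BxPC-3-GR, with a log2FC of 1.65 ± 0.10 (limma's adjusted p = 5.25e-05), while its groups overlapped in the CFPAC-1 pair (log2FC 0.04 ± 0.09). The correction gave GBP2 a log2FC of -0.70 in CFPAC-1-GR, since genes of its GC content rose there. GBP1 had a log2FC of -0.20 in BxPC-3-GR. In CFPAC-1-GR it rose from 2.58 to 2.66 FPKM up to 8.55 to 9.03 (log2FC 1.45, corrected 0.60). MX1 and MX2 block incoming virus, and they were split between the lines. MX1 stayed at 0.640 to 0.839 FPKM in the BxPC-3 pair against 3.09 to 6.84 in the CFPAC-1 pair. MX2 was at 4.62 to 6.71 FPKM in the BxPC-3 pair and at 0.223 to 0.859 in the CFPAC-1 pair.

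ISG15 is a ubiquitin-like protein, HERC5 is the ligase that attaches it, USP18 removes it and also restrains the receptor, and HERC6 is a relative of HERC5. ISG15 had values of 29.8, 29 and 25.7 FPKM in BxPC-3, 14.7, 16.2 and 14.2 in BxPC-3-GR, 90.5, 76.1 and 80.6 in the CFPAC-1 libraries and 30.6, 35.7 and 33.7 in CFPAC-1-GR. ISG15 was lower in both resistant lines, with no overlap in either pair. Its log2FC was -0.86 ± 0.08 in BxPC-3-GR, below the fold threshold, and -1.28 ± 0.09 in CFPAC-1-GR (limma's adjusted p = 2.07e-05). With 63.4% GC, ISG15 was among the members of highest GC content, and its log2FC in CFPAC-1-GR was -0.22 after the correction. HERC6 fell from 5.53 to 5.86 FPKM in BxPC-3 to 1.19 to 1.28 in BxPC-3-GR, with a log2FC of -1.58 ± 0.05 (limma's adjusted p = 4.93e-06). HERC5 was not called there (log2FC 0.08 ± 0.05, adjusted p = 0.189), although both genes lie on chromosome 4. In CFPAC-1-GR the log2FC was 1.16 for HERC5 and 0.999 for HERC6, the latter just short of the threshold, and the correction gave 0.47 and 0.50. USP18 was at 1.15 to 1.78 FPKM in BxPC-3, 0.413 to 0.662 in BxPC-3-GR and 6.81 to 9.14 in the 6 libraries of the CFPAC-1 pair.

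PARP9 and PARP14 belong to the family that adds ADP-ribose to proteins, and DTX3L is a ubiquitin ligase that acts in a complex with PARP9. PARP14 lay at 8.63, 8.29 and 9.53 FPKM in BxPC-3, 8.77, 8.09 and 9.59 in BxPC-3-GR, 2.45, 2.38 and 2.03 in the CFPAC-1 libraries and 17, 14.3 and 16.4 in CFPAC-1-GR. DTX3L was measured at 24, 24.3 and 26.3 FPKM in BxPC-3, 23.8, 22.5 and 23.7 in BxPC-3-GR, 9.82, 9.93 and 11.2 in the CFPAC-1 libraries and 31.4, 29.7 and 30.2 in CFPAC-1-GR. PARP9 stood at 6.13, 6.51 and 6.72 FPKM in BxPC-3, 6.59, 6.65 and 7.3 in BxPC-3-GR, 3.24, 3.43 and 3.35 in the CFPAC-1 libraries and 11.6, 13 and 12.6 in CFPAC-1-GR. The 3 genes, neighbors on chromosome 3, shared one pattern: like levels in BxPC-3 and BxPC-3-GR, a low level in CFPAC-1 and the highest level in CFPAC-1-GR. None passed adjusted p 0.05 in BxPC-3-GR, where log2FC was -0.00 ± 0.08 for PARP14, 0.07 ± 0.06 for PARP9 and -0.09 ± 0.06 for DTX3L. In CFPAC-1-GR log2FC was 2.36 for PARP14, 1.63 for PARP9 and 1.48 for DTX3L, and 1.26, 0.68 and 0.74 after the correction, where PARP14 alone of the 3 kept its call. PARP9 and DTX3L share 217 exon bases on opposite strands.

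RSAD2 (viperin) and CMPK2, adjacent genes whose products make and supply an antiviral nucleotide, were below 1 FPKM in all 12 libraries and were not tested. The highest value was 0.707 FPKM for RSAD2 and 0.604 for CMPK2, both in CFPAC-1-GR. RSAD2 was at 0.145 to 0.490 FPKM in BxPC-3 and 0.0247 to 0.0495 in BxPC-3-GR. In CFPAC-1 it was at 0.0555 to 0.0917, and in CFPAC-1-GR at 0.571 to 0.707. CMPK2 was at 0.145 to 0.273 FPKM in BxPC-3 and 0.0152 to 0.0401 in BxPC-3-GR. In CFPAC-1 it was at 0.0700 to 0.136, and in CFPAC-1-GR at 0.208 to 0.604. All these values are near the floor.

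Of the remaining interferon-induced members, SAMD9 was called in both pairs, in opposite directions. SAMD9 is a cytoplasmic restriction factor of poxviruses. SAMD9 was at 12.9, 12.8 and 14.3 FPKM in BxPC-3, 3.26, 3.47 and 3.81 in BxPC-3-GR, 0.234, 0.232 and 0.246 in the CFPAC-1 libraries and 7.59, 5.56 and 6.55 in CFPAC-1-GR. Mean FPKM was 3.80-fold lower in BxPC-3-GR than in BxPC-3 and 27.7-fold higher in CFPAC-1-GR than in CFPAC-1. On the log scale these were -1.67 ± 0.07 (limma's adjusted p = 1.61e-05) and 2.60 ± 0.10 (adjusted p = 6.25e-06), and after the correction -1.63 and 1.27. IFI6 had values of 20.7, 12.8 and 11.2 FPKM in BxPC-3, 2.09, 4.03 and 2.1 in BxPC-3-GR, 21, 10.2 and 16.7 in the CFPAC-1 libraries and 7.84, 10.5 and 10.9 in CFPAC-1-GR. IFI6, a mitochondrial and endoplasmic reticulum protein, fell in BxPC-3-GR with a log2FC of -2.08 ± 0.28, although its BxPC-3 libraries spread widely, and it overlapped between the CFPAC-1 groups (log2FC -0.61, corrected 0.08). IFI44 lay at 17.7, 20.3 and 18.5 FPKM in BxPC-3, 16.6, 18 and 20.4 in BxPC-3-GR, 1.01, 1.11 and 1.43 in the CFPAC-1 libraries and 4.99, 4.56 and 4.03 in CFPAC-1-GR. IFI44 was not called in BxPC-3-GR (log2FC -0.04 ± 0.09, limma's adjusted p = 0.744). In the CFPAC-1 pair it rose by 1.34, or 0.40 and not called after the correction. IFI35 was measured at 1.09, 0.962 and 1.16 FPKM in BxPC-3, 0.886, 0.862 and 1.03 in BxPC-3-GR, 21.5, 17.9 and 19.5 in the CFPAC-1 libraries and 8.49, 12.7 and 10.1 in CFPAC-1-GR. LGALS3BP stood at 33.1, 32.8 and 31 FPKM in BxPC-3, 23.4, 24.3 and 23.8 in BxPC-3-GR, 65.4, 72.5 and 71.1 in the CFPAC-1 libraries and 35.1, 38.6 and 38.2 in CFPAC-1-GR. IFI35 and LGALS3BP, a secreted glycoprotein, stood higher in the CFPAC-1 pair, and their log2FC of -0.87 and -0.88 in CFPAC-1-GR were -0.03 and -0.09 after the correction. IFI27 had a log2FC of -0.73 in BxPC-3-GR against 0.51 in CFPAC-1-GR (corrected 0.52). IFI44L, EPSTI1, SAMD9L and XAF1 stayed at or below 2.0 FPKM in every library, and of these IFI44L alone was tested in BxPC-3-GR (log2FC -0.55).

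**Figure D4:**
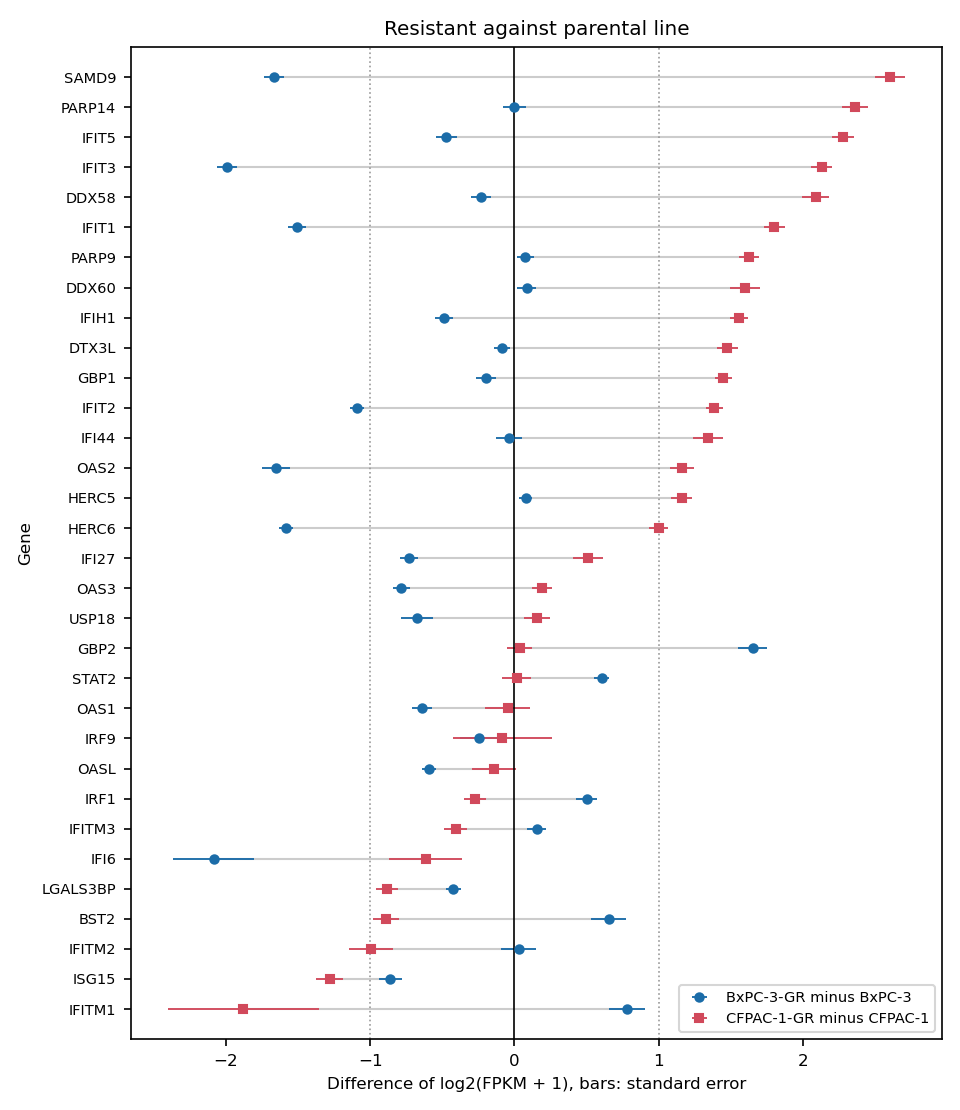
Difference of mean log2(FPKM + 1) between the resistant and the parental line for the 32 members tested in both pairs, with standard errors (n = 3 against 3), ordered by the CFPAC-1 pair. Dotted lines mark the fold threshold, and values are not corrected for GC content. SAMD9, IFIT3, IFIT1, IFIT2 and OAS2 lie past the threshold on opposite sides in the 2 pairs.

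The difference between the responses was tested as an interaction over all 12 libraries, with log2FC in BxPC-3-GR subtracted from that in CFPAC-1-GR. Of 37 members tested, 18 responded more positively in CFPAC-1-GR, where 23.6% of all 12210 genes did, and 4 more negatively, where 14.4% did. The largest differences were 4.27 ± 0.13 for SAMD9, 4.12 ± 0.10 for IFIT3, 3.31 ± 0.09 for IFIT1 and 2.82 ± 0.13 for OAS2 (limma's adjusted p = 1.62e-09, 5.20e-10, 1.13e-09 and 1.57e-08, respectively). After the correction these were 2.95, 3.56, 2.43 and 2.40 and kept their calls. The more negative ones were IFITM1, GBP2, BST2 and IFITM2. With the correction, 15 members were more positive and 2, IFITM1 and GBP2, more negative, with 9.31% and 9.10% of all genes. IRF7, USP18 and OAS3 were called only with the correction in this comparison, at 1.66, 1.02 and 1.15. IRF7 was near 0 FPKM in the BxPC-3 pair, so its response there could not be measured.

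Between the parental lines the members differed in both directions, within several roles as well as between them. BxPC-3 was higher for 16 of 36 tested members and CFPAC-1 for 13, where 24.7% and 19.8% of all 11842 genes were. The 3 RNA helicases, the 4 IFIT genes, SAMD9, IFI44, OASL, MX2, OAS2, HERC5, HERC6, PARP14 and DTX3L were higher in BxPC-3, led by SAMD9 (log2FC 3.53 ± 0.06), DDX60 (3.43 ± 0.06) and IFI44 (3.18 ± 0.09). All 4 membrane restriction factors were higher in CFPAC-1, with IFITM2 (-3.71 ± 0.06) as the largest, together with IFI35, GBP2, USP18, IRF1, ISG15, MX1, ISG20, LGALS3BP and OAS3. The call of BST2 (-1.01) was at the threshold and was lost without BxPC-3 replicate 2 (-0.94), CFPAC-1 replicate 1 (-0.97) or CFPAC-1 replicate 3 (-0.98). This comparison holds the CFPAC-1 libraries, and the log2FC values above are uncorrected. After the GC and length correction BxPC-3 was higher for 11 members and CFPAC-1 for 9, where 13.1% and 13.5% of all genes were. Of the calls made without the correction, 20 were kept and 9 were lost.

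Between the resistant lines there was no GC trend over all genes, while over the members rho was -0.353. Lower in BxPC-3-GR were 15 of 36 tested members and higher were 4, where 10.3% and 6.8% of all 12330 genes were. The median log2FC was -0.80 over the members and -0.09 over all genes. The 15 included IFIT1 (-1.77 ± 0.07), IFIT3 (-1.65 ± 0.08) and IFIT5 (-1.31 ± 0.08), for which BxPC-3 had stood above CFPAC-1 among the parental lines, although those parental differences share the GC trend. IFITM2 (-2.69), USP18 (-2.60), IFI35 (-2.55), MX1 (-2.07), OAS3 (-2.03) and IFITM3 (-1.81) were on the same side in both comparisons of lines. The 4 members higher in BxPC-3-GR were DDX60, IFI44, OASL and MX2, at 1.92, 1.81, 1.80 and 1.67. DDX58 overlapped between the resistant lines (0.02 ± 0.10, limma's adjusted p = 0.840). After the GC and length correction 15 members were lower and 5 higher, where 8.80% and 8.32% of all genes were.

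**Figure D5:**
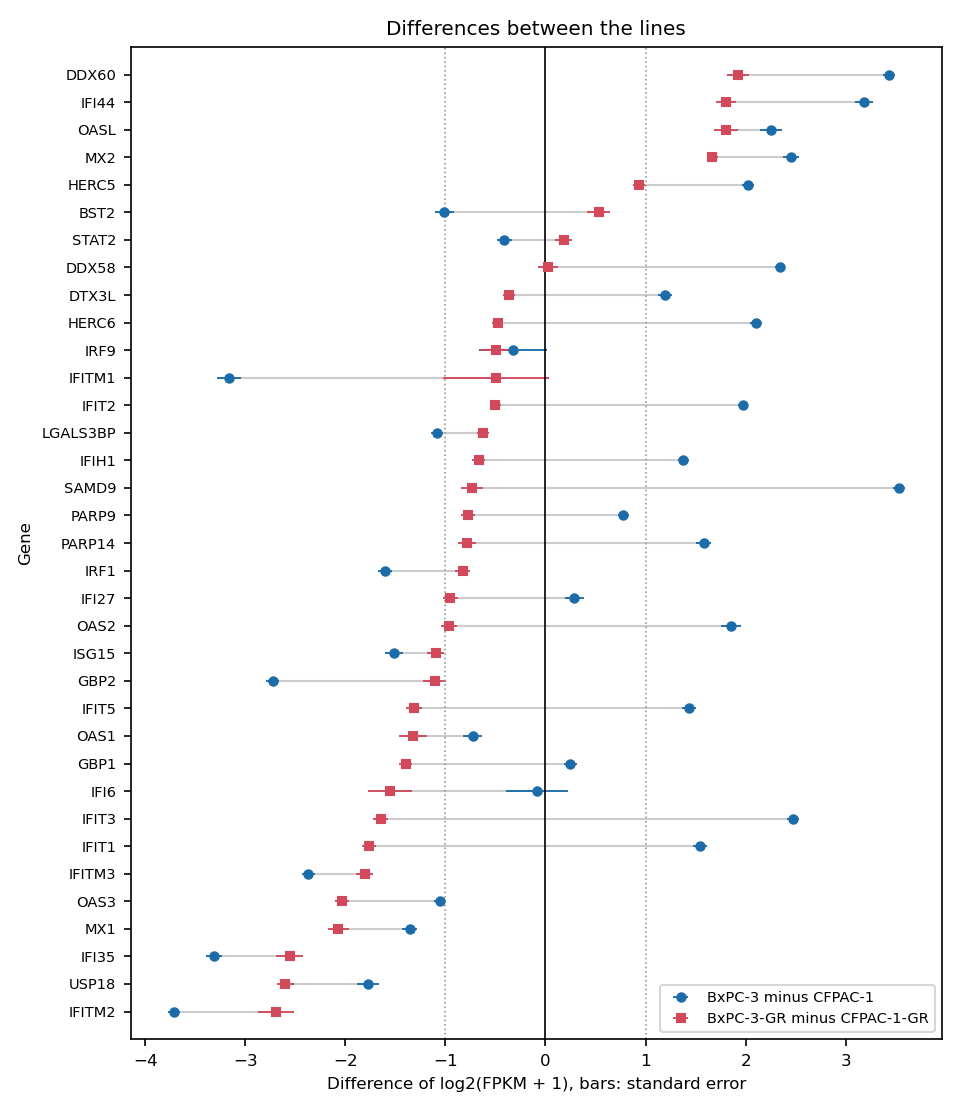
Difference of mean log2(FPKM + 1), BxPC-3 minus CFPAC-1 (circles) and BxPC-3-GR minus CFPAC-1-GR (squares), for the 35 members tested in both, with standard errors (n = 3 against 3). The parental differences include the trend with GC content. IFIT1, IFIT3 and IFIT5 change side and were called in both comparisons. Others also change side, among them IFIT2, SAMD9, OAS2, HERC6 and PARP14. DDX60, IFI44, OASL and MX2 stay on the BxPC-3 side and IFITM2, IFI35 and USP18 on the CFPAC-1 side.

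Genes upstream of the members were read from separate lists. For comparison, 4.14% of all genes tested were called higher and 3.62% lower in BxPC-3-GR, and 20.5% and 11.7% in CFPAC-1-GR. None of 8 interferon genes reached a mean of 1 FPKM over the libraries of a pair, and the highest was IFNE, an epithelial type I interferon, at 1.43, 1.86 and 1.31 FPKM in CFPAC-1-GR and at most 0.106 in any CFPAC-1 library. IFNB1 was listed at 0 in 11 of 12 libraries. Of 11 receptors and kinases, 10 were tested in each pair. IL10RB, the shared chain of the interferon lambda receptor, and JAK2 were called higher in BxPC-3-GR (log2FC 1.20 and 1.18), and none lower. IFNLR1, the partner of IL10RB in that receptor, was at 0.720 to 0.845 FPKM in BxPC-3 and at most 0.0207 in BxPC-3-GR, below the minimum for a test. IL10RB was not called in CFPAC-1-GR (-0.56) but was called lower there after the correction (-1.64, limma's adjusted p = 0.00189). In CFPAC-1-GR the receptor chains IFNAR1 and IFNGR1 were called higher at 1.92 and 1.28, and at 0.95 and 0.31 neither was called after the correction. Of 14 sensors, adaptors and kinases upstream of interferon, none of 12 tested was called in BxPC-3-GR. Among 12 tested in CFPAC-1-GR, the kinase TBK1, the endosomal receptor TLR3 and the DNA sensor IFI16 were called higher (2.10, 1.32 and 1.22). TMEM173 (STING) and the adaptor TICAM1 were called lower there (-1.22 and -1.09). None of these 5 was called after the correction, and their counts before it were not far from the shares of all genes. Among 8 negative regulators, none of the 7 tested was called in BxPC-3-GR. With 6 tested in CFPAC-1-GR, the phosphatase PTPN11 (2.14) and PIAS1 (1.25) were called higher and SOCS1 (-1.27) lower. So few genes cannot be set apart from the shares of all genes. PTPN11 alone was called after the correction, at 1.13.

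A further list of 28 interferon-induced genes that are not members gave 1 call in BxPC-3-GR, the chemokine CXCL11, which fell by 1.75 on the log2 scale. By adjusted p alone 14 of its 27 tested genes were lower and 6 higher, beside 31.5% and 26.2% of all genes. In CFPAC-1-GR 9 of 26 tested genes were called higher and 3 lower, beside 20.5% and 11.7% of all genes. EIF2AK2, which encodes the RNA-activated kinase PKR, was the highest of the 9 (log2FC 2.10, corrected 0.72), followed by APOL6, PNPT1, GBP3, TNFSF10, TDRD7, ZC3HAV1, RNF213 and SP100. PML, SHISA5 and LY6E were called lower. With the correction none of these 12 was called.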

How the data were processed

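RNA was measured in 3 libraries of each of 4 cell lines. The authors deposited FPKM values per gene, made on GRCh38 with Ensembl gene models per the study's methods. The submitters' processing notes name Trimmomatic 0.27, FastQC 0.10.1 and TopHat2 2.0.8, and both hg19 and GRCh38. The program that computed the FPKM and its strand setting are not given in the sources used here. Coordinates of 42 of 43 members equaled those of GENCODE release 29, from which exon lengths and the GC content of the longest transcript were taken.

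FPKM are not counts, so log2(FPKM + 1) was fitted with limma 3.58.1 in R 4.3.3 (lmFit, eBayes), on the libraries compared, with a minimum mean of 1 FPKM per gene. The thresholds were a Benjamini-Hochberg adjusted p of 0.05 and an absolute log2FC of 1. Only 55.1 to 65.2% of the low values came to whole fragments within 0.03, too few to recover counts. The correction subtracted natural splines of GC content and log exon length (5 degrees of freedom each), fitted over all genes tested. An exact permutation test of 3 libraries against 3 cannot go below p = 0.1, so no such test was used. On simulated data for CFPAC-1-GR against CFPAC-1 with 12142 genes, 94.5% of 200 changed genes were recovered with 1 false call. For BxPC-3-GR against BxPC-3 with 11785 genes, 97.0% were recovered with 1. These simulated data held no trend with GC content, and only genes well above the minimum mean were changed. The false calls therefore do not cover calls that follow the GC trend in CFPAC-1-GR against CFPAC-1. Alternatives were another pseudocount, no filter, median-of-ratios and upper-quartile scaling, 1 fit over all 12 libraries, a replicate block and leaving out each library. The members and lists were chosen with earlier results of these data known. Members could be named in role groups, with every library's value for those called in a comparison of groups and reaching 10 FPKM, and listed genes were named where a resistant line differed from its parental line. The result of 1 gene of the other lists is not reported here. One listed gene is entered as CGAS, its symbol in the table. Promoters came from RefSeq (GRCh38.p14), counted over the first start listed for each gene, and protein sequences were not used here.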

Additional observations from a re-analysis of the deposited data

Results flagged for a closer look

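For 22 members the change with resistance differed between the 2 pairs of lines by the interaction test (limma, adjusted p under 0.05 by Benjamini-Hochberg, difference past 1 in size), where 23.6% of all genes tested were more positive and 14.4% more negative. Values are log2FC in CFPAC-1-GR minus log2FC in BxPC-3-GR, each from 3 libraries per line. Among the IFIT genes the difference was 4.12 for IFIT3, 3.31 for IFIT1, 2.75 for IFIT5 and 2.48 for IFIT2. Among the helicases it was 2.32 for DDX58, 2.04 for IFIH1 and 1.51 for DDX60. OAS2 differed by 2.82, HERC6 by 2.58 and HERC5 by 1.08. For PARP14 it was 2.36, for DTX3L 1.56 and for PARP9 1.55. SAMD9 differed by 4.27, GBP1 by 1.64, IFI6 by 1.47, IFI44 by 1.38 and IFI27 by 1.24. The response of IFITM1 (-2.66), GBP2 (-1.62), BST2 (-1.54) and IFITM2 (-1.02) was more negative in CFPAC-1-GR.

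After the GC and length correction 14 of the 22 kept their calls. DTX3L (0.86), GBP1 (0.81), PARP9 (0.65), HERC5 (0.41), IFI44 (0.38), DDX60 (0.28), BST2 (-0.79) and IFITM2 (-0.45) did not. Leaving out single libraries ended the call of IFITM2, which was -0.92 without BxPC-3-GR replicate 1, -1.0 (just short of the threshold) without BxPC-3-GR replicate 3, -0.98 without CFPAC-1 replicate 2 and -0.87 without CFPAC-1-GR replicate 1.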

How the results depend on the processing

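With the GC and length correction, members called in CFPAC-1-GR fell from 15 higher and 3 lower to 6 and 0, of which 5 and 0 had been called without it, and members with a more negative response in CFPAC-1-GR fell from 4 to 2. The correction with the replicate block gave the same counts, 6, 0 and 2. Median-of-ratios scaling moved the median log2FC of all genes in CFPAC-1-GR from 0.13 to 0.00. The share of higher genes among all calls went from 63.7% to 52.7% there and from 62.1% to 46.9% for the interaction. That scaling gave 7 lower of 36 tested members in CFPAC-1-GR, where 15.4% of all genes were lower. For the interaction, 7 of 37 tested members had a more negative response, where 20.1% of all genes did. A minimum mean of 0.1 FPKM with a pseudocount of 0.1 FPKM, chosen after seeing the data, gave 11 lower of 42 tested members in BxPC-3-GR and 23 higher of 43 in CFPAC-1-GR, where 6.03% and 28.3% of all genes were. No call changed sign within its own comparison under the alternatives run. Values not called in CFPAC-1-GR did change sign with the correction, among them IFITM3 (-0.41 to 0.34), GBP2 (0.04 to -0.70) and IFI6 (-0.61 to 0.08). Leaving out 1 library gave 7 lower members and 1 higher in BxPC-3-GR each time, 15 to 16 higher and 2 to 4 lower in CFPAC-1-GR, 16 to 17 and 12 to 14 between the parental lines, 4 and 15 to 17 between the resistant lines, and 18 to 19 and 3 to 4 for the interaction. The replicate block alone changed none of 96 calls of members. Libraries with the same number did not deviate together in every pair (correlations from 0.096 to -0.052 in the BxPC-3 pair and from 0.000145 to -0.143 in the CFPAC-1 pair), so replicates were not paired. Members with a mean below 1 FPKM were tested only under the lower minimum or without a filter, and the shallowest libraries held 12700000 implied fragments.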

Other observations

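Some members varied between replicates of one line more than the rest. In CFPAC-1 IRF9 was at 3.22, 1.55 and 5.84 FPKM, and in CFPAC-1-GR IFITM1 was at 29.1, 8.01 and 40.3 FPKM. IFI6 was at 20.7, 12.8 and 11.2 FPKM in BxPC-3 and at 21.0, 10.2 and 16.7 in CFPAC-1. IRF9 and IFITM1 both share exon bases with another gene on their own strand, and the part of that overlap in the spread was not tested.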
